A study of Rattus norvegicus with 15 samples.

Results

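The transforming growth factor beta (TGF-beta) genes of the rat lung were followed across a model of chronic obstructive pulmonary disease (COPD) and its treatment with Wendan Decoction (WDD), a traditional Chinese herbal formula. The set was chosen by gene symbol: the ligands Tgfb1, Tgfb2 and Tgfb3, the receptors Tgfbr1, Tgfbr2 and Tgfbr3, the signal transducer Smad3, the inhibitory Smads Smad6 and Smad7, and the target gene Ccn2. These are 10 of the 22250 genes measured, and all 10 passed the filter on low values that left 13172 genes for testing. RNA sequencing gave 15 lung libraries, 5 in each of 3 groups, and every rat was labelled wild-type. Normal rats made up the control group. Rats of the COPD group had been given lipopolysaccharide (LPS, a component of the bacterial cell wall) and smoke by way of the trachea. The WDD group had the same LPS and smoke exposure and received Wendan Decoction by gavage. No strain, sex, age, dose or time is stated in the sources used here, and the labels do not say whether each library came from its own rat, so p-values measure only the spread between these samples.

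TGF-beta ligands are secreted in a latent form and, once released, bind a complex in which the type II receptor (Tgfbr2) phosphorylates the type I receptor (Tgfbr1), while the co-receptor betaglycan (Tgfbr3) presents the ligand. The active complex phosphorylates Smad3, which enters the nucleus with a partner Smad and switches on target genes, among them the matricellular protein gene Ccn2 (connective tissue growth factor). Smad6 and Smad7 are induced by the pathway and its BMP branch and hold both back. In the lung the pathway is known for its part in matrix deposition, airway remodelling, vessel maintenance and the restraint of inflammation.

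The values were FPKM, fragments scaled to transcript length and to all mapped fragments of a library, so levels can be compared between genes per unit length. Steps between low values placed the relative depth of the libraries between 0.88 and 1.11 times that of control 2. The groups differed in makeup before any single gene was considered. Mitochondrially encoded genes held 5.19% to 9.62% of the FPKM sum in control, 33.7% to 65.0% in COPD and 19.1% to 26.5% in WDD libraries. The median log2 level of 29 long transcripts minus that of 29 short ones ran from -2.29 to -1.01 in control, from -4.34 to -3.34 in COPD and from -3.87 to -3.15 in WDD libraries. Summed markers of neutrophils (6 of 6 listed genes measured) ran from 42.9 to 84.7 FPKM in control, from 10900 to 42700 in COPD and from 82.1 to 434 in WDD libraries. The lung markers Sftpc and Scgb1a1 stood at 1840 FPKM or more in every library. Sftpd reached down to 23.9 FPKM, and Cldn5, 1 of the 8 of 9 lung markers measured, was listed at 0 in all 15. Summed lung markers ran from 28000 to 39600 FPKM in control, from 5140 to 25400 in COPD and from 38100 to 59700 in WDD libraries. Every COPD library thus lay below every other library. COPD 1, with the highest mitochondrial share and the lowest of these sums, stood apart, as did COPD 5 in several genes below. The part of these differences in the results that follow was not tested.

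In COPD lungs the whole set stood lower than in control lungs. All 10 genes fell on the values as deposited, with a median log2 fold change of -1.72 and a range of -3.96 to -0.80. For each of them every COPD library lay below every control library as deposited. How many of all genes did so was not counted. The background was broad, however: 66.4% of the 13172 genes tested were called lower and 8.23% higher at an adjusted p under 0.05 (limma, Benjamini-Hochberg over all genes), and the median of all genes was -0.81. A median-of-ratios scaling, which sets the typical gene to no change (median -0.05), called 7 of the 10 lower and none higher, against 32.6% of all genes lower and 30.0% higher. The 3 that lost their call were Tgfb1, Tgfb2 and Tgfbr1. After this scaling every COPD library still lay below every control library for Tgfb3, Tgfbr3, Smad7 and Ccn2 only. Of the 29 long transcripts, 29 were lower as deposited (median -1.77) and 23 after scaling (median -0.91). As deposited every COPD library lay below every control library for 28 of the 29 long transcripts and 0 of the 29 short ones. Of the 29 short ones, 0 were lower and 14 higher as deposited, and 29 were higher after scaling. The part of transcript length in the counts of the set was not tested. Since lung tissue was sequenced in bulk, fewer cells of a type and less RNA per cell cannot be told apart.

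In WDD lungs 8 of the 10 genes were higher than in COPD lungs and 0 lower, with a median log2 fold change of 0.79. Across all genes 57.1% were higher and 6.63% lower, with a median of 0.54. Of the 29 long transcripts 27 were higher and 0 lower as deposited (median 0.70), and 7 higher and 1 lower after scaling. Of the 29 short ones 10 were higher and 2 lower as deposited (median 0.26), and 0 higher and 12 lower after scaling. The part of transcript length here was not tested. Under the median-of-ratios scaling 4 genes remained higher (Tgfb3, Tgfbr3, Smad6 and Ccn2), against 23.3% of all genes, and 1 was lower (Tgfbr1), against 21.4%. Against control lungs, 7 of the 10 were lower in WDD lungs and 0 higher, with a median of -0.58, where 31.0% of all genes were lower, 6.35% higher and the median was -0.23. The median-of-ratios scaling left 5 lower (Tgfbr1, Tgfbr2, Tgfbr3, Smad3 and Smad7) and 0 higher, against 17.2% and 15.7% of all genes. In WDD against control 28 of the 29 long transcripts were lower as deposited and 26 after scaling. Of the 29 short ones 22 were higher as deposited and 29 after scaling. Each pair of these comparisons shares a group of libraries, so the comparisons are not independent of one another.

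**Figure D1:**
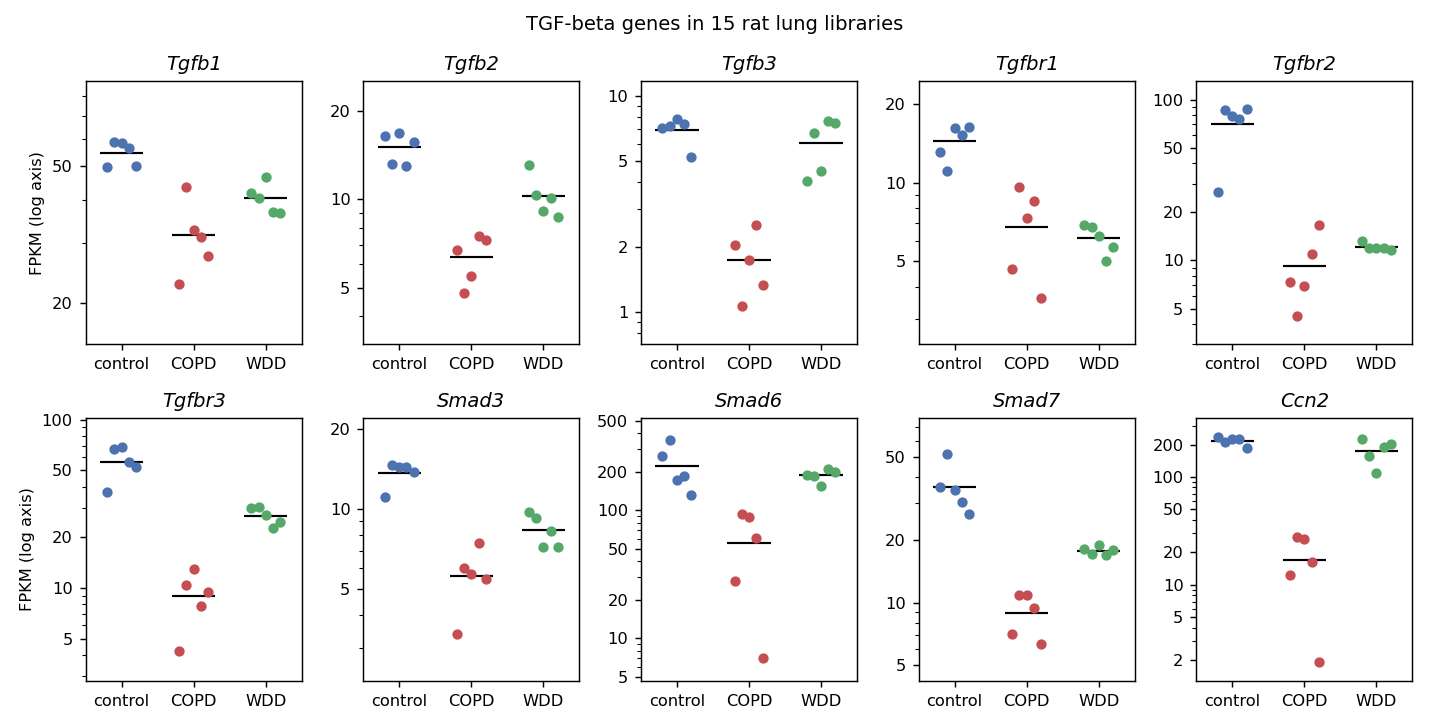
FPKM (log axis) of each TGF-beta gene in the 15 lung libraries: points are single libraries, black lines are group means, and each panel has its own axis. All COPD points lie below all control points in every panel, and the WDD points of Ccn2 (108 to 223 FPKM) and Smad6 (156 to 210.5 FPKM) overlap those of the controls, while those of Tgfbr2 (11.7 to 13.1 FPKM) stay far below it.

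**Figure D2:**
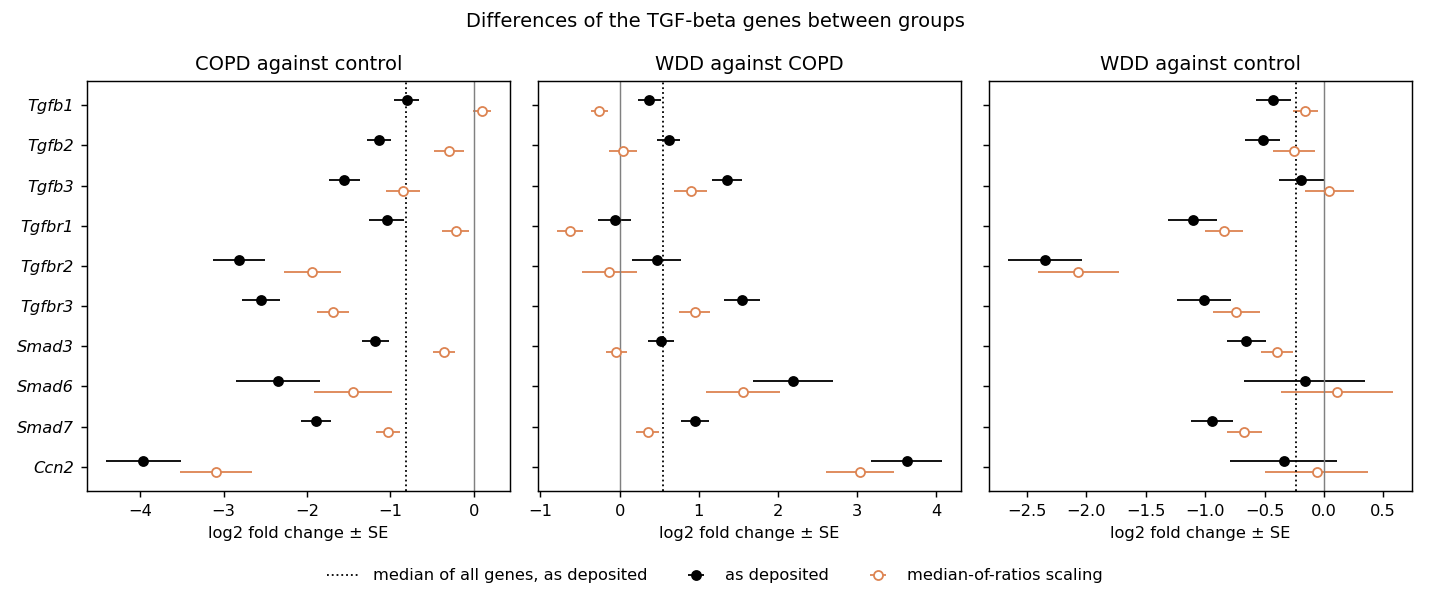
Log2 fold change (± SE, log2 of FPKM + 1) of each gene in the 3 comparisons: black points as deposited, open orange points after median-of-ratios scaling, dotted line at the median of all 13172 genes as deposited. Ccn2 stands farthest out in the first comparison (-3.96) and the second (3.63), and Tgfbr2 in the comparison of WDD with control (-2.35).

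Tgfb1 was the most abundant of the ligands in every library, and its difference between COPD and control was the smallest of the 3 ligands. Control 1 to 5 held 49.9, 59.0, 58.5, 56.5 and 50.1 FPKM, COPD 1 to 5 held 22.9, 43.6, 32.7, 31.1 and 27.6, and WDD 1 to 5 held 42.0, 40.5, 46.5, 36.9 and 36.7. COPD and WDD libraries were all below the controls and overlapped each other through COPD 2. The log2 fold change of COPD against control was -0.80 ± 0.15 (± SE; limma, adjusted p = 0.000127) as deposited, near the middle of all genes (percentile 50.5), and 0.10 ± 0.11 after median-of-ratios scaling (adjusted p = 0.412), so its direction turned with the scaling. WDD against COPD gave 0.38 ± 0.15 (limma, adjusted p = 0.0362) and -0.26 ± 0.11 after scaling (adjusted p = 0.0582), again turning sign. The calls of Tgfb1 in WDD lungs were fragile: that against COPD was lost in 11 of 23 other settings and turned in 1, and that against control (-0.43 ± 0.15, limma, adjusted p = 0.032) was lost in 8 of 22. Leaving out WDD 1, 2 or 3 or COPD 1, 4 or 5 ended the former (0.27 to 0.38, adjusted p = 0.0528 to 0.0923), and leaving out control 2, 3 or 4 or WDD 2, 4 or 5 the latter (-0.43 to -0.39, adjusted p = 0.0555 to 0.0777).

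Tgfb2, a ligand that needs betaglycan for strong binding to the type II receptor, stood at 16.5, 13.2, 16.9, 13.0 and 15.7 FPKM in control 1 to 5. It stood at 6.71, 4.81, 5.48, 7.49 and 7.28 FPKM in COPD 1 to 5 and at 13.1, 10.4, 9.14, 10.1 and 8.69 FPKM in WDD 1 to 5. The COPD libraries were the lowest of the 3 groups without overlap, and WDD 1 reached into the control range. Tgfb2 fell by 1.13 ± 0.15 in COPD and was higher by 0.62 ± 0.15 in WDD than in COPD (limma, adjusted p = 3.34e-06 and 0.00175), whereas the scaled values were -0.29 ± 0.18 and 0.04 ± 0.18 (adjusted p = 0.161 and 0.876). Between WDD and control it was -0.51 ± 0.15 (adjusted p = 0.0116) as deposited and -0.25 ± 0.18 (adjusted p = 0.294) scaled.

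Tgfb3, the least abundant ligand, differed most of the 3 both between COPD and control and between WDD and COPD. Its levels were 7.09, 7.22, 7.79, 7.37 and 5.19 FPKM in control 1 to 5, 2.03, 1.06, 1.73, 2.53 and 1.33 in COPD 1 to 5, and 4.04, 6.69, 4.46, 7.63 and 7.496 in WDD 1 to 5. All COPD libraries lay below all others, and the WDD libraries split into 2 near 4 FPKM and 3 within the control range. Tgfb3 fell by 1.55 ± 0.19 in COPD (limma, adjusted p = 1.83e-06), or by 0.85 ± 0.21 after scaling (adjusted p = 0.00214). In WDD it was higher than in COPD by 1.36 ± 0.19 (limma, adjusted p = 2.13e-05), or by 0.90 ± 0.21 after scaling (adjusted p = 0.00258). The difference between WDD and control, -0.19 ± 0.19 (adjusted p = 0.459), did not pass. Quantile normalisation ended the COPD call, at -0.48 with an adjusted p of 0.0505.

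Shares within the ligands do not depend on how a library is scaled. Tgfb3 made up 7.30% to 9.65% of the ligand sum in control, 2.14% to 6.44% in COPD and 6.84% to 14.2% in WDD libraries. Its share was thus below every control and every WDD library in all 5 COPD libraries. Tgfb1 took 71.3% ± 2.58 in control, 78.9% ± 6.23 in COPD and 71.1% ± 3.72 in WDD (mean ± SD, n = 5), with overlap between groups. Tgfb2 took 19.7% ± 2.78, 16.6% ± 4.79 and 18.1% ± 2.65, also with overlap. Platelets are a rich source of Tgfb1. Their 5 listed markers summed to 27.3 to 60.3 FPKM in control, 19.4 to 154 in COPD and 86.2 to 119 in WDD, with Gp1bb at 0 in all 15 libraries and Ppbp in 1; their part in the Tgfb1 values was not tested.

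**Figure D3:**
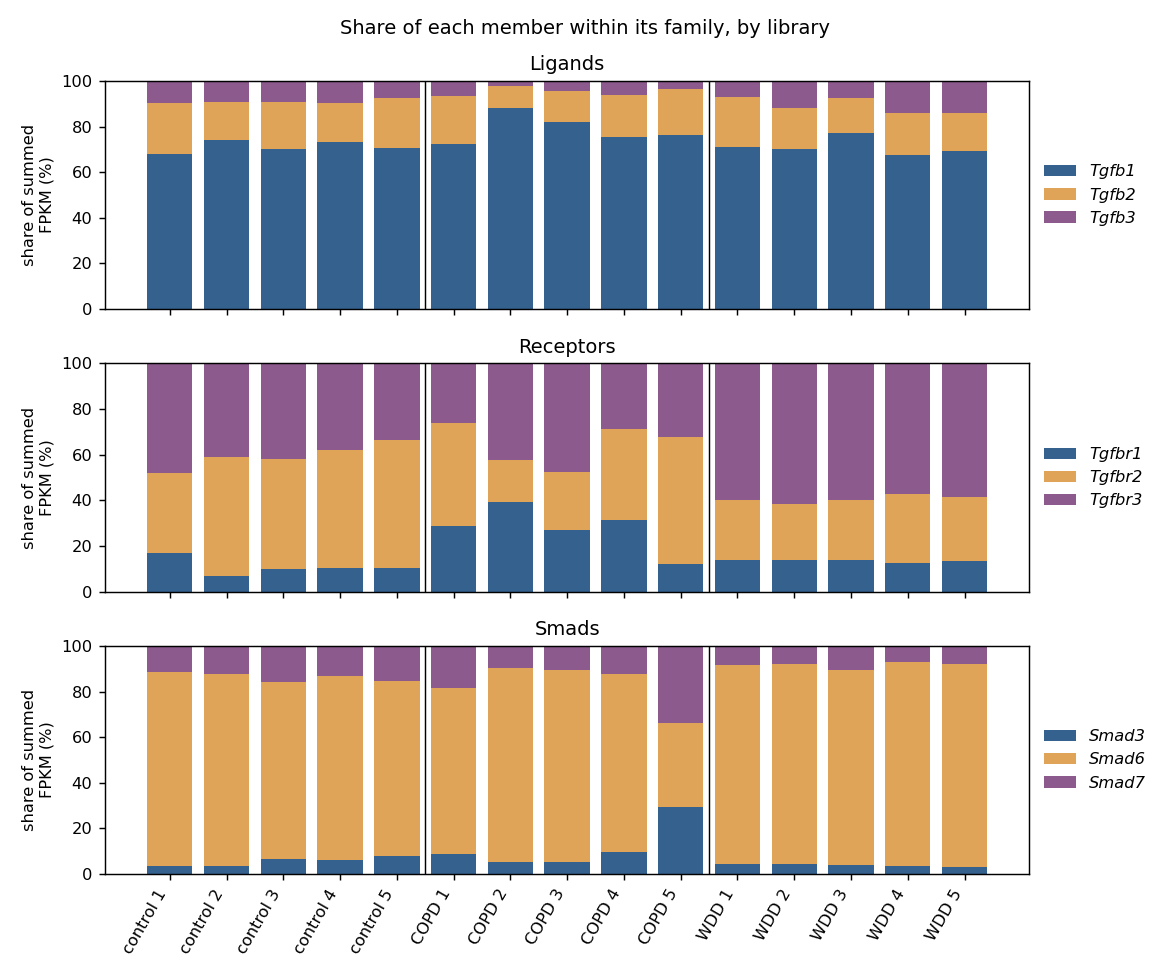
Share of each gene in the summed FPKM of its family (ligands, receptors, Smads), as stacked bars for each of the 15 libraries, grouped by control, COPD and WDD. Tgfb3 takes at most 6.44% of the ligand sum in COPD libraries, Tgfbr3 takes 57.4% or more of the receptor sum in WDD libraries, and COPD 5 differs from all others in its Smads.

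In COPD against control the receptor genes Tgfbr2 and Tgfbr3 stood at -2.81 and -2.56 and Tgfbr1 at -1.05; the difference between them was not tested. Tgfbr1, the type I receptor kinase that phosphorylates Smad3, held 13.1, 11.1, 16.2, 15.2 and 16.3 FPKM in control 1 to 5, 4.66, 9.64, 7.35, 8.51 and 3.61 in COPD 1 to 5, and 6.91, 6.77, 6.22, 5.03 and 5.68 in WDD 1 to 5. Both exposed groups lay wholly below the controls, and the WDD libraries fell inside the range of the COPD ones. The log2 fold change was -1.05 ± 0.21 for COPD against control (limma, adjusted p = 0.000231; -0.22 ± 0.16, adjusted p = 0.264, after scaling) and -1.11 ± 0.21 for WDD against control (limma, adjusted p = 0.000622; -0.84 ± 0.16, adjusted p = 0.0013, after scaling). WDD against COPD gave -0.06 ± 0.21 (adjusted p = 0.806) as deposited and -0.63 ± 0.16 (adjusted p = 0.00602) after scaling. Without COPD 1 and COPD 5 together the value as deposited was -0.42 (limma, adjusted p = 0.0216).

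Tgfbr2, the type II receptor that binds ligand and starts the signal, was at 26.7, 85.6, 78.9, 76.0 and 87.0 FPKM in control 1 to 5. It was at 7.28, 4.499, 6.92, 10.9 and 16.6 in COPD 1 to 5, and at 13.1, 11.9, 11.9, 11.9 and 11.7 in WDD 1 to 5. As deposited, control 1 stood far below the other controls yet above every exposed library. After scaling the lowest control, at 20.8 FPKM, lay below the highest COPD library, at 27.4 FPKM. The COPD libraries differed among themselves by several fold, and the WDD libraries were nearly equal. Tgfbr2 fell by 2.81 ± 0.31 in COPD against control (limma, adjusted p = 6.41e-07) and by 1.94 ± 0.34 after scaling (adjusted p = 0.000159). Without control 1 the difference as deposited was -3.13. WDD lungs stood at 17.1% of the control mean, with a log2 fold change of -2.35 ± 0.31 (limma, adjusted p = 6.4e-05; -2.07 ± 0.34 scaled, adjusted p = 0.000434), a place of 0.106 on the percentile scale of all genes tested in that comparison. WDD against COPD, 0.47 ± 0.31 (limma, adjusted p = 0.199), did not pass, and it turned to -0.13 after scaling. Without COPD 5 it passed as deposited, at 0.69 (limma, adjusted p = 0.0426).

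Tgfbr3, the co-receptor betaglycan, held 37.1, 67.2, 68.5, 56.2 and 52.0 FPKM in control 1 to 5, 4.22, 10.5, 12.9, 7.87 and 9.53 in COPD 1 to 5, and 29.9, 30.1, 27.2, 22.7 and 24.5 in WDD 1 to 5. The 3 groups did not overlap: COPD was lowest, WDD in between and control highest. Tgfbr3 fell by 2.56 ± 0.23 in COPD (limma, adjusted p = 6.44e-08) and was higher in WDD than in COPD by 1.54 ± 0.23 (limma, adjusted p = 3.24e-05). After scaling these were -1.69 ± 0.20 (adjusted p = 2.75e-06) and 0.95 ± 0.20 (adjusted p = 0.00114). WDD lungs held 47.9% of the control mean, a log2 fold change of -1.01 ± 0.23 (limma, adjusted p = 0.00241; -0.74 ± 0.20 scaled, adjusted p = 0.00948).

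The receptor mix differed as well. Tgfbr3 formed 57.4% to 61.8% of the receptor sum in WDD libraries, above the 33.5% to 48.2% of controls and the 26.1% to 47.6% of COPD libraries. Tgfbr2 formed 24.4% to 29.9% in WDD, below the 34.7% to 56.0% of controls, and 18.3% to 55.8% in COPD. The ratio of Tgfbr3 to Tgfbr2 was 1.92 to 2.53 in WDD libraries, 0.598 to 1.39 in controls and 0.575 to 2.32 in COPD libraries, which overlapped both. Tgfbr1 formed 10.9% ± 3.76 in control, 27.7% ± 9.85 in COPD and 13.5% ± 0.494 in WDD (mean ± SD, n = 5). Of the endothelial markers 5 of 6 listed genes were measured. As deposited all 5 were lower in COPD than in control, against 66.4% of all genes. All 5 were higher in WDD than in COPD, against 57.1% of all genes. Of the receptors only Tgfbr3 was called higher there as deposited. After scaling 2 of the 5 markers were lower in COPD and 2 higher in WDD than in COPD, against 32.6% and 23.3% of all genes. The sum of the 5 markers ran from 388 to 512 FPKM in control, from 71.3 to 191 in COPD and from 295 to 355 in WDD, and none was at 0. The long-minus-short transcript measure differed by 0.299 between WDD and COPD libraries (exact permutation test, two-sided, p = 0.214) and by -2 between WDD and control (p = 0.00794, the smallest that 5 against 5 allows). The part of both in the receptor values was not tested.

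Smad3, the receptor-activated transducer, was at 11.1, 14.7, 14.5, 14.5 and 13.8 FPKM in control 1 to 5, at 3.40, 6.004, 5.72, 7.47 and 5.47 in COPD 1 to 5, and at 9.77, 9.28, 7.23, 8.30 and 7.24 in WDD 1 to 5. Controls were above all exposed libraries, and only COPD 4 reached the lower WDD values. Smad3 fell by 1.18 ± 0.16 in COPD (limma, adjusted p = 6.48e-06) and by 0.35 ± 0.14 after scaling (adjusted p = 0.0317). This call was lost in 1 of 22 other settings (limma, adjusted p = 0.0593). Smad3 kept its direction in all 22. Smad3 was higher in WDD than in COPD by 0.52 ± 0.16 (limma, adjusted p = 0.0104) as deposited but stood at -0.040 ± 0.14 after scaling (adjusted p = 0.833). Against control, WDD lungs were lower by both scales, at -0.65 ± 0.16 and -0.39 ± 0.14 (adjusted p = 0.00488 and 0.035).

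Smad6, an inhibitory Smad best known downstream of BMP signals and abundant in vessels, had with Ccn2 the highest levels of the set in control lungs (222 ± 88.4 and 217 ± 19.3 FPKM, SD, n = 5, not apart beyond their spread). Control 1 to 5 held 267, 354, 173, 186.5 and 132 FPKM, COPD 1 to 5 held 27.9, 93.2, 88.2, 60.6 and 6.98, and WDD 1 to 5 held 188, 185.5, 156, 210.5 and 199. COPD 5 and COPD 1 were the lowest of all libraries, and the WDD libraries lay within the control range. Smad6 fell by 2.35 ± 0.51 in COPD and was higher in WDD than in COPD by 2.19 ± 0.51 (limma, adjusted p = 0.000525 and 0.00147). After scaling these were -1.44 ± 0.47 and 1.56 ± 0.47 (adjusted p = 0.0141 and 0.0138). Without COPD 1 and COPD 5 together the values as deposited were -1.39 and 1.23, still past the threshold. WDD against control gave -0.16 ± 0.51 (adjusted p = 0.833).

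Smad7, the inhibitory Smad that blocks and degrades the type I receptor, stood at 35.9, 51.6, 34.9, 30.6 and 26.7 FPKM in control 1 to 5, at 7.08, 10.8, 10.9, 9.37 and 6.30 in COPD 1 to 5, and at 18.1, 17.1, 18.9, 16.8 and 17.9 in WDD 1 to 5. The groups did not overlap, and WDD libraries lay between the other groups within a narrow range. Smad7 fell by 1.89 ± 0.18 in COPD (limma, adjusted p = 9.86e-08; -1.03 ± 0.15 scaled, adjusted p = 2.22e-05). It was higher in WDD than in COPD by 0.95 ± 0.18 (limma, adjusted p = 0.000237), a call that scaling ended at 0.35 ± 0.15 (adjusted p = 0.0611). Against control, WDD lungs stood at -0.94 ± 0.18 as deposited (limma, adjusted p = 0.000622), and at -0.67 ± 0.15 scaled (adjusted p = 0.00281).

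Within the Smads, Smad6 took 76.5% to 85.0% of the sum in controls, 37.2% to 84.7% in COPD and 85.6% to 89.3% in WDD, so each WDD library was above each control. COPD 5 stood apart, with 37.2% for Smad6, 33.6% for Smad7 and 29.2% for Smad3. The ratio of Smad6 to Smad7 was 4.94 to 7.44 in control, 1.11 to 8.60 in COPD and 8.23 to 12.5 in WDD libraries. The ratio of Smad7 to Smad3, an inhibitor to the transducer it opposes, was 1.94 to 3.50, 1.15 to 2.09 and 1.84 to 2.62 in the same order.

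Ccn2, a secreted matrix protein gene that TGF-beta and the YAP/TEAD pathway both induce, showed the largest log2 fold changes of the set in COPD against control and in WDD against COPD. Control 1 to 5 held 237, 211, 225, 226 and 187 FPKM, COPD 1 to 5 held 12.3, 27.7, 26.4, 16.2 and 1.93, and WDD 1 to 5 held 223, 158, 108, 189.5 and 202. Every COPD library was far below every other library, COPD 5 most of all, and 3 of the WDD libraries (1, 4 and 5) lay within the control range. The COPD mean of 16.9 ± 10.7 FPKM was 7.79% of the control mean of 217 ± 19.3 (SD, n = 5), and the WDD mean of 176 ± 44.7 was 10.4 times the COPD mean. The log2 fold change was -3.96 ± 0.45 for COPD against control (limma, adjusted p = 8.02e-07) and 3.63 ± 0.45 for WDD against COPD (limma, adjusted p = 6.87e-06), the latter at percentile 99.9 of all genes tested. After scaling they were -3.10 ± 0.43 (adjusted p = 1.68e-05) and 3.03 ± 0.43 (adjusted p = 4.91e-05). Without COPD 1 and COPD 5 the values as deposited were -3.19 and 2.85. WDD against control gave -0.34 ± 0.45 (adjusted p = 0.593). The ratio of Ccn2 to Tgfb1 within a library was 3.57 to 4.75 in control, 0.0699 to 0.809 in COPD and 2.33 to 5.51 in WDD. Smooth muscle markers (7 of 7 listed measured, none at 0) summed to 164 to 280 FPKM in control, 58.1 to 76.2 in COPD and 81.1 to 161 in WDD, and fibroblast markers (6 of 6, none at 0) to 236 to 317, 187 to 442 and 249 to 304. All 7 smooth muscle markers were lower in COPD than in control as deposited, and 5 were after scaling, against 66.4% and 32.6% of all genes. In WDD against COPD 5 of the 7 were higher and 0 lower as deposited, against 57.1% and 6.63%. After scaling 4 were higher and 2 lower there, against 23.3% and 21.4%. Of the 6 fibroblast markers 4 were lower and 1 higher in COPD than in control as deposited, against 66.4% and 8.23% of all genes. After scaling 1 was lower and 2 were higher, against 32.6% and 30.0%. In WDD against COPD 3 of the 6 were higher and 0 lower as deposited, and 2 higher and 3 lower after scaling. Tcf21 and Dcn had the highest COPD means of the 6, at 171.5 and 91.1 FPKM. The part of both marker lists in the Ccn2 values was not tested.

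The promoters of Ccn2, Tgfb3 and Tgfbr3 are shown because these genes, like Smad6, were called in both the COPD and the WDD comparison on both scales. Promoter windows of 300 bases, from 250 before to 50 after the annotated start, were matched for 9 of the 10 genes in the RefSeq table (GRCr8), all but Smad6. Each is written 5′ to 3′ on the gene's strand, in lower case, with matches to the letters searched in capitals: the Smad box CAGAC and the TEAD element GGAATG. Ccn2 lies at chr1:22624565-22624864 (minus strand), Tgfb3 at chr6:111456897-111457196 (minus strand) and Tgfbr3 at chr14:2634044-2634343 (plus strand).
Ccn2: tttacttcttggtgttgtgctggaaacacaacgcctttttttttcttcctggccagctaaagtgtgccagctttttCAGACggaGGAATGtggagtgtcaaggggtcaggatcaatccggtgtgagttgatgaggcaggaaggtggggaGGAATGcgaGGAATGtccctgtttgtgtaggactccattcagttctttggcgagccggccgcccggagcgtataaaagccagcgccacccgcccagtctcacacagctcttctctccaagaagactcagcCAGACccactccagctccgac
Tgfb3: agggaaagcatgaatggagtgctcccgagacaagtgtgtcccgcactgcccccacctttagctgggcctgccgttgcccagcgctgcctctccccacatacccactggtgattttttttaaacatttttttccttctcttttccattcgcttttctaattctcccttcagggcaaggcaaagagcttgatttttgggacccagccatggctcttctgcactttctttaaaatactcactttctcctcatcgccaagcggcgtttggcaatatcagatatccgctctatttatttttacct
Tgfbr3: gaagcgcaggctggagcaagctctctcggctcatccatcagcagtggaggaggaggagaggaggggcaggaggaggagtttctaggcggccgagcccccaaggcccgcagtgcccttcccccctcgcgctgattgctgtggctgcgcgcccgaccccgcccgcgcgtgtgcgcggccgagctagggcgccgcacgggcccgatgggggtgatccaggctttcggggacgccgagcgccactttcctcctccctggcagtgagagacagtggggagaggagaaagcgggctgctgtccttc

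The Ccn2 window held GGAATG 3 times, at -166, -101 and -92 from the start, and CAGAC 2 times, at -174 and 29, all on the gene's own strand and without overlap between them. The CAGAC at -174 and the GGAATG at -166 are separated by 3 bases. Both strands were searched for 5 motifs: CAGAC, its longer form CAGACA, the palindrome GTCTAGAC, GGAATG and the AP-1 site TGACTCA. Of 33469 rat promoters of the same length, 50.1% held CAGAC, 21.1% CAGACA, 0.197% GTCTAGAC, 14.2% GGAATG and 4.63% TGACTCA. At least 3 matches to GGAATG, the number that the Ccn2 window held, were found in 32 of them, or 0.0956%. Such a cutoff was applied to GGAATG alone, so this share is no test of the Ccn2 window. The other 8 matched windows of the set held none of the 5 motifs, which says only that these letters are not there. GC content was 54.0% for Ccn2, 47.7% for Tgfb3 and 69.7% for Tgfbr3, against a median of 51.7% over all promoters. A match is a description of the letters and not a site in use.

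Genes around the set were read from lists by role, and each count stands against the same background: as deposited 66.4% of all genes were lower and 8.23% higher in COPD than in control, and 57.1% higher and 6.63% lower in WDD than in COPD. The medians of all genes were -0.81 and 0.54. After scaling the shares were 32.6% and 30.0%, and 23.3% and 21.4%. The list of latency and activation was drawn up around the holding of ligands in the matrix and their release. Of its genes 12 of 14 were tested: 11 were lower and 0 higher in COPD than in control (median -1.52). The 3 of lowest p belonged to the family named latent TGF-beta binding proteins. Ltbp2, Ltbp4 and Ltbp3 fell, at -2.25 ± 0.20, -2.35 ± 0.22 and -2.08 ± 0.19 (limma, adjusted p = 7.48e-08, 8.74e-08 and 1.02e-07). In WDD against COPD 8 were higher and 1 lower (median 0.90), with Ltbp2, Ltbp4 and Ltbp3 higher by 1.81, 1.82 and 1.71. Ltbp4 stood at 124.5 to 192 FPKM in control, 14.2 to 39.5 in COPD and 84.7 to 109 in WDD. The gene that was lower in WDD, named after its values were seen, was the latency activator Thbs1 (-1.58 ± 0.54, limma, adjusted p = 0.0171), at 126 FPKM in COPD 5 and 9.19 to 31.0 in the other COPD libraries; without COPD 5 it was -0.99 (adjusted p = 0.0247), and without COPD 1 and COPD 5 it was -0.94 (adjusted p = 0.0568). Median-of-ratios scaling left 9 lower and 0 higher in COPD, and 4 higher and 2 lower in WDD against COPD.

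Of the other receptors and co-receptors, 6 of 7 were tested, all 6 lower in COPD (median -1.31, against 66.4% of all genes lower) and all 6 higher in WDD than in COPD (median 0.91, against 57.1% higher). The list held Zfyve9 (SARA, the anchor that brings Smads to the receptor), which fell by 1.65 ± 0.14, and Bambi, a decoy receptor, which fell by 1.86 ± 0.21 (limma, adjusted p = 3.72e-08 and 8.46e-07). Eng, the endothelial co-receptor endoglin, fell by 1.30 ± 0.25 (limma, adjusted p = 0.000172), from 232 to 457 FPKM in control to 61.1 to 184 in COPD, and stood at 237 to 281 in WDD. Scaling left 4 of the 6 lower in COPD and 2 higher in WDD, and Eng lost both calls. Tgfbrap1, which binds the receptors, fell by 1.28 ± 0.16 in COPD (limma, adjusted p = 2.72e-06). Its difference of 0.40 ± 0.16 in WDD against COPD (limma, adjusted p = 0.0402) turned to -0.12 after scaling. As deposited and without COPD 5 this difference was 0.26 (limma, adjusted p = 0.0894).

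Of the other Smads and their regulators, 13 of 14 were tested, with 9 lower and 1 higher in COPD (median -1.06) and 7 higher and 2 lower in WDD against COPD (median 0.45). Both counts were near the shares of all genes, 66.4% lower and 57.1% higher. Ski, a co-repressor that binds Smads in the nucleus, fell by 3.09 ± 0.21 (limma, adjusted p = 6.31e-09), from 23.7 to 50.8 FPKM in control to 2.84 to 4.92 in COPD. In WDD it stood at 8.20 to 14.4 FPKM, above COPD by 1.29 ± 0.21 and still below control at -1.80 ± 0.21 (limma, adjusted p = 8.28e-05 and 3.11e-05). The BMP transducer Smad5 and Smad2, the close relative of Smad3, fell, at -1.48 ± 0.13 and -1.06 ± 0.12 (limma, adjusted p = 8.11e-08 and 8.32e-07); Smad2 was at -0.22 after scaling (adjusted p = 0.0968). In WDD against COPD, Smad5 was higher by 0.45 ± 0.13 and Smad2 by 0.75 ± 0.12 as deposited. After scaling they stood at -0.14 and 0.17 (adjusted p = 0.49 and 0.231). Tgif1, a repressor of Smad-driven transcription, was the 1 higher gene in COPD, by 0.62 ± 0.18, and was lower in WDD than in COPD, at -0.68 ± 0.18 (limma, adjusted p = 0.00528 and 0.00388). Without COPD 5 its rise was 0.41 (adjusted p = 0.00168). Scaling gave 3 higher and 5 lower in COPD, and 1 higher and 2 lower in WDD against COPD.

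Of the BMP and activin branch, 17 of 22 were tested, with 12 lower and 0 higher in COPD (median -1.10) and 11 higher and 2 lower in WDD against COPD (median 0.57). These counts too were near the 66.4% lower and 57.1% higher of all genes. Bmp6, a BMP ligand, fell by 2.55 ± 0.21 (limma, adjusted p = 3.35e-08), from 49.7 to 80.7 FPKM in control to 6.21 to 16.2 in COPD, and stood at 25.7 to 44.2 in WDD. Fstl3, a soluble activin trap, and Id2, a common BMP target, fell, at -2.02 ± 0.16 and -1.40 ± 0.13 (limma, adjusted p = 2.67e-08 and 1.17e-07). Their differences between WDD and COPD were 1.75, 1.76 and 0.95 for Bmp6, Fstl3 and Id2; the last was at 0.32 after scaling (adjusted p = 0.0976). The 2 lower genes in WDD, named after their values were seen, were the type I receptor Acvr1b (-0.78 ± 0.15) and the activin trap Fst (-0.96 ± 0.28; limma, adjusted p = 0.000418 and 0.00789). Scaling gave 4 higher and 6 lower in COPD, and 4 higher and 4 lower in WDD against COPD.

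Known target genes other than Ccn2 were called in both directions. Of 18 listed, 17 were tested, with 3 higher and 11 lower in COPD (median -0.87, close to the -0.81 of all genes), and 8 higher and 2 lower in WDD against COPD. Of all genes 66.4% were lower and 8.23% higher in COPD, and 57.1% were higher and 6.63% lower in WDD against COPD. The 11 lower in COPD and the 8 higher in WDD were near or below these shares. The 3 higher in COPD and the 2 lower in WDD, both small counts, were above them. Timp1, an inhibitor of matrix metalloproteinases, stood at 55.7, 27.8, 35.7, 26.1 and 27.0 FPKM in control 1 to 5, at 232, 343, 185, 324 and 846.5 in COPD 1 to 5, and at 36.6, 40.5, 34.3, 67.2 and 57.9 in WDD 1 to 5. All COPD libraries were above all others, with COPD 5 highest. Timp1 rose by 3.29 ± 0.34 in COPD and was lower in WDD than in COPD, at -2.84 ± 0.34 (limma, adjusted p = 2.66e-07 and 4.62e-06). Neutrophil marker sums, given above, were also highest in COPD, and their part in the Timp1 values was not tested.

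Other targets were lower in COPD. The matrix protein gene Postn, the smooth muscle actin gene Acta2 and the transcription factor gene Bhlhe40 fell, at -1.89 ± 0.32, -1.51 ± 0.25 and -1.48 ± 0.17 (limma, adjusted p = 5.87e-05, 4.4e-05 and 1.08e-06). Postn was higher in WDD than in COPD by 1.97 ± 0.32 (limma, adjusted p = 8.58e-05), at 117 to 134 FPKM against 9.27 to 52.2. Acta2 and Bhlhe40 were higher by 0.73 ± 0.25 and 0.48 ± 0.17 as deposited (limma, adjusted p = 0.018 and 0.0222), but at 0.091 and -0.13 after scaling (adjusted p = 0.788 and 0.587). Col1a1, the collagen I chain, did not pass in COPD (-0.51 ± 0.36, adjusted p = 0.214) and had the opposite sign after scaling (0.34). Scaling gave 5 higher and 5 lower targets in COPD, and 2 higher and 4 lower in WDD against COPD.

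Of the CCN family, relatives of Ccn2 in sequence, 3 of 4 were tested: 2 were lower in COPD and 2 higher in WDD than in COPD, and Ccn1 passed in neither. Ccn3 held 22.1 to 30.1 FPKM in control, 1.29 to 6.82 in COPD and 12.5 to 22.2 in WDD, and Ccn5 18.6 to 30.7, 0.522 to 12.3 and 15.02 to 27.6. Both fell in COPD, at -2.68 ± 0.27 and -2.64 ± 0.42, and were higher in WDD than in COPD by 2.10 ± 0.27 and 2.44 ± 0.42 (limma, adjusted p = 1.94e-07, 3.19e-05, 8.41e-06 and 0.000145). These calls held after median-of-ratios scaling. Ccn1, which shares much of its regulation with Ccn2, overlapped between groups, at 101 to 298.5 FPKM in control, 66.3 to 206 in COPD and 117 to 343 in WDD. Its differences of -0.77 ± 0.37 and 0.74 ± 0.37 did not pass (limma, adjusted p = 0.0699 and 0.0903), and the first turned to 0.15 after scaling. With COPD 5 left out both passed as deposited, at -1.005 and 0.97 (adjusted p = 0.0171 and 0.0243), and with COPD 1 and COPD 5 left out neither did (adjusted p = 0.0587 and 0.0786). With control 5 left out the first passed as well, at -0.99 (adjusted p = 0.0254).

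Between WDD and control lungs 0 genes of these lists were higher as deposited, and after scaling 1 of the other Smads and regulators and 1 of the BMP and activin branch were. As deposited 6 of 12 genes of latency and activation, 3 of 6 other receptors, 7 of 13 other Smads and regulators, 7 of 17 of the BMP and activin branch and 4 of 17 other targets were lower, and 0 of 3 CCN genes, against 31.0% of all genes. After scaling the counts in that order were 4, 2, 7, 3, 2 and 0 lower, against 17.2% of all genes.

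**Figure D4:**
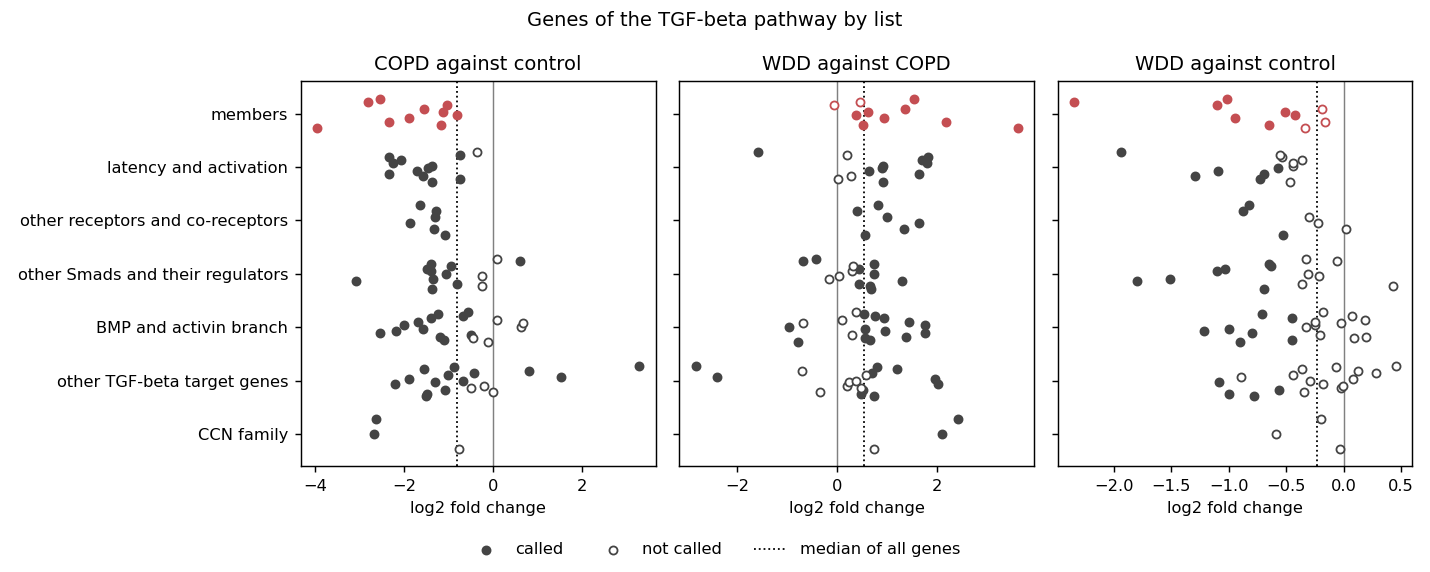
Log2 fold change (as deposited, log2 of FPKM + 1) of each tested gene, by list and comparison: filled points passed an adjusted p of 0.05, open points did not, red points are the 10 TGF-beta genes and the dotted line is the median of all genes. In COPD against control the targets spread from -2.21 to 3.29, while the 10 TGF-beta genes run from -3.96 to -0.80.

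Group differences in makeup are shared by all genes of the 15 libraries. The genes whose levels ran most like the set were found over these libraries by Pearson's r of log2(FPKM + 1). For Ccn2 these were Sh3tc2 (0.988), Zfp157 (0.986) and Pbx3 (0.985). For Smad6 they were the elastin gene Eln (0.991), Cdc42ep1 (0.986) and Rgs12 (0.9855). For Tgfbr2 they were Ddr2, a collagen receptor kinase (0.987), Wasf2 (0.986) and Kat6a (0.985), and for Tgfbr3 Sash1 (0.992), Scap (0.992) and Retreg3 (0.9895). Within the set, Ccn2 and Smad6 were the most alike (0.944) and Tgfbr2 and Smad6 the least (0.364).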

How the data were processed

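RNA sequencing of 15 rat lung libraries (5 control, 5 COPD, 5 WDD) was analysed from the FPKM values that the authors deposited for 22250 genes in 1 table of all libraries. Per the submitters' processing notes, the tools were cutadapt, HISAT2 and StringTie with the build Rnor_6.0; no version or setting is stated in the sources used here. FPKM divides by all mapped fragments, so a rise in a few abundant genes, such as mitochondrial ones, lowers all others; counts were not analysed here, and depth was estimated only from the steps between low values.

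The 10 TGF-beta genes and the pathway lists were chosen with earlier results of these data known. Groups came from the labels. Values were tested as log2(FPKM + 1), and fold changes on this scale understate those of low genes. Genes needed 1 FPKM in at least 5 libraries, which left 13172. One limma model (3.58.1, R 4.3.3, empirical Bayes with trend) held all 3 groups, with Benjamini-Hochberg adjustment over all genes and a threshold of 0.05. Median-of-ratios size factors were computed from FPKM. Single measures of libraries were compared by exact permutation tests in R. Promoter letters and relative depth were read in Python 3.11.15 (numpy 2.4.6, pandas 2.3.3). Figures were drawn with matplotlib 3.10.9. The model was tested on simulated data.

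Genes named are the 10, then from each list up to 2 higher and 3 lower in COPD of lowest p, with Ccn1, Col1a1 and Eng, and the 3 genes most like each of 4 of the 10; 1 gene that the rule names is not reported here. Protein lengths were not used; in their place, long and short transcripts were listed by hand after the files were seen. Itgb5 and Col1a2 were not analysed here. Alternatives were 3 other scalings (median-of-ratios, quantile, FPKM sum without mitochondrial genes), pseudocounts of 0.1 and 0.5, no filter, a mean of at least 5 FPKM, no trend, library weights, only the 2 groups compared, a replicate block, WDD 4 and 5 averaged, and leaving out each library or COPD 1 and 5. No 2 libraries were identical.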

Additional observations from a re-analysis of the deposited data

Results flagged for a closer look

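In 4 of the 30 groups of 5 libraries checked (10 genes in 3 groups), 1 library lay farther from the others than Dixon's 95% critical value of 0.71 allows; chance gives about 1 in 20 groups. Tgfbr2 stood at 26.7 FPKM in control 1, where the other controls held 75.95 to 86.96 FPKM, and at 13.08 FPKM in WDD 1, where the other WDD libraries held 11.65 to 11.9 FPKM. Smad3 stood at 11.12 FPKM in control 1, where the other controls held 13.76 to 14.73 FPKM. Tgfb3 stood at 5.186 FPKM in control 5, where the other controls held 7.088 to 7.79 FPKM. Control 1 was also the lowest control on the long-minus-short transcript measure, at -2.29, and the part of this in its Tgfbr2 and Smad3 values was not tested.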

How the results depend on the processing

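Of the values of single TGF-beta genes under other settings, 212 of 219 kept direction and call in COPD against control (22 settings), 201 of 229 in WDD against COPD (23 settings) and 204 of 219 in WDD against control (22 settings). Ccn2, Smad6 and Tgfbr3 kept both their COPD and their WDD against COPD calls under all of these, and Tgfbr1, Tgfbr2, Tgfbr3, Smad3 and Smad7 their WDD against control calls. Scaling moved most: median-of-ratios turned Tgfb1 (0.10) in COPD against control, Tgfb1 (-0.26), Tgfbr2 (-0.13) and Smad3 (-0.040) in WDD against COPD, and Tgfb3 (0.046) and Smad6 (0.11) in WDD against control, and gave 4 higher and 1 lower gene in WDD against COPD, with 5894 of all genes called there. Quantile normalisation turned Tgfbr2 (-0.048) and Smad3 (-0.062) in WDD against COPD and Tgfb3 (0.22) in WDD against control, left 6 of the 10 lower in COPD, and gave 5 higher and 1 lower in WDD against COPD, with 5379 of all genes called. With the FPKM sum without mitochondrial genes 5 were higher in WDD against COPD. Library weights turned Smad6 (0.053) and called 8209 of all genes, against 4915, in WDD against control. Without COPD 1 and 5 together 1 gene, Tgfbr1, was lower in WDD against COPD. Leaving out 1 library at a time moved Tgfbr1 in WDD against COPD between -0.23 and 0.070 and Smad6 in WDD against control between -0.33 and 0.026, neither called; the sign of Tgfbr1 turned without COPD 2 or COPD 4 and that of Smad6 without control 2. Tgfb3 was not tested at a mean of at least 5 FPKM. The cause of these shifts was not tested.

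Replicate numbers were not taken as pairing libraries: the deviations of same-numbered libraries correlated above 0.1 in 1 of 15 pairs (range -0.201 to 0.143), and 2 of 15 libraries correlated best with their own number. With the replicate block the counts were 10 lower in COPD, 8 higher in WDD against COPD and 7 lower in WDD against control, and 9747, 8181 and 4637 of all genes were called. Depth could be estimated only relatively, so low values such as those of Tgfb3 and Ccn2 in COPD libraries are given without a counting error.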
